A study of Rattus norvegicus with 8 samples.

Results

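The lipid-sensing nuclear receptors and their coactivators were described across the 4 groups of a rat colitis study. These are 3 peroxisome proliferator-activated receptors (Ppara, Ppard and Pparg), 2 retinoid X receptors (Rxra and Rxrb), the liver X receptors Nr1h2 and Nr1h3, the farnesoid X receptor Nr1h4, and the coactivators Ppargc1a and Ppargc1b. Members were taken as the probes whose gene name in the scanner files is one of these 10 symbols. All 10 genes had a probe, 12 probes in all, and all 10 passed the filter on dim probes and were among the 18164 genes tested.

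Gene expression in the colon was measured on 8 single-colour arrays, 2 per group, in Wistar rats that were female and 14 weeks old. The ALA group received a diet enriched with α-linolenic acid, the plant n-3 fatty acid. The fish oil group received a diet enriched with fish oil, rich in the long-chain n-3 fatty acids. The n-6 group received sunflower oil, a source of n-6 fatty acids. Diets were given for 8 weeks, and these 3 groups then had colitis from 5% dextran sulfate sodium (DSS), which injures the colon lining, for 7 days. The healthy group received sunflower oil without DSS. The study set its n-3 diets against the n-6 group.

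RNA of 6 rats was pooled for an array, from 6 healthy rats or 10 rats in each colitis group, of 36 in all. Both healthy arrays therefore carry the same 6 rats, and arrays of a colitis group share rats or carry the same pool, so the p-values reflect array-to-array spread alone. All arrays lay on 1 slide. Slide row 1 held the ALA and healthy arrays, and row 2 those of fish oil and n-6. ALA and fish oil arrays lay in slide columns 1 and 2, and n-6 and healthy arrays in columns 3 and 4. Slide position and group cannot be told apart in any comparison of 2 groups.

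Between 54% and 70.1% of probes were well above background on an array, lowest on fish oil replicate 1. The n-6 replicate 1 array stood apart: its mean correlation with the other 7 arrays was 0.933 across genes, against 0.947 to 0.96 for the others. All 13 colon epithelium markers, among them Epcam, Krt8 and Vil1, were well above background on every array, so the tissue label was borne out. Their mean log2 level was 3.42 on n-6 replicate 1 and lay between 4.60 and 5.49 on the other 7 arrays. In this whole-tissue RNA, fewer cells of a type and less RNA per cell cannot be told apart.

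These receptors are transcription factors that bind fatty acids, oxysterols, bile acids or their derivatives and, mostly as pairs with a retinoid X receptor, switch genes of lipid handling on. PPAR-alpha drives fatty acid oxidation and ketogenesis, PPAR-gamma is abundant in the colon epithelium, liver X receptors drive cholesterol export, and the farnesoid X receptor senses bile acids. The PGC-1 coactivators, encoded by Ppargc1a and Ppargc1b, bind such receptors and raise the output of genes of mitochondria and oxidation. Polyunsaturated fatty acids, those of both n-6 and n-3 kinds, are among the natural PPAR ligands.

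The coactivators and Ppara had the smallest p-values of the members, and their sequences show what was measured and what lies upstream. Both coactivator probes are 60 bases long and are printed as the files give them, in lower case, with their positions on rn4. The probe of Ppargc1a lies at chr14:64365667-64365726 on the plus strand, and that of Ppargc1b at chr18:57280683-57280742 on the minus strand. No rn4 annotation was used here.
Ppargc1a probe: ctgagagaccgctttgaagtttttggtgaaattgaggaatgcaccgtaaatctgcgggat
Ppargc1b probe: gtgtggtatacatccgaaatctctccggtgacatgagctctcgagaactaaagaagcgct

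Promoters, taken as 250 bases before to 50 after the annotated start in RefSeq on the GRCr8 build, were found for 8 of the 10 members (9 promoters, 2 of them for Pparg). Ppard and Nr1h4 had none. The 3 shown are those of Ppargc1a (chr14:63634058-63634357, plus strand), Ppargc1b (chr18:57131417-57131716, minus strand) and Ppara (chr7:118712357-118712656, plus strand). Capitals mark TGACGTCA, the cyclic AMP response element, and GGGCGG, the GC box, on either strand. Neighbouring GC boxes overlap once in Ppargc1b.
Ppargc1a promoter: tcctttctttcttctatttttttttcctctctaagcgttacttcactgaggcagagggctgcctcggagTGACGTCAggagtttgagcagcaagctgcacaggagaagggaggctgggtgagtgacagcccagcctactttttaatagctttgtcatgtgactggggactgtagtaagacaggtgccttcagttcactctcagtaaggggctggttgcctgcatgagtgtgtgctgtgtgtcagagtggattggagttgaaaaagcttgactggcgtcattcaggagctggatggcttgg
Ppargc1b promoter: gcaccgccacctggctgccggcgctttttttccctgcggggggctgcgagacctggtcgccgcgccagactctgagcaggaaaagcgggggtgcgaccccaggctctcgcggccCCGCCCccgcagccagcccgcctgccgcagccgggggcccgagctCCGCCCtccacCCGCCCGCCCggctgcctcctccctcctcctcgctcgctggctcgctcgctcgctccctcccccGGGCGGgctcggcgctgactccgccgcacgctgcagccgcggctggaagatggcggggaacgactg
Ppara promoter: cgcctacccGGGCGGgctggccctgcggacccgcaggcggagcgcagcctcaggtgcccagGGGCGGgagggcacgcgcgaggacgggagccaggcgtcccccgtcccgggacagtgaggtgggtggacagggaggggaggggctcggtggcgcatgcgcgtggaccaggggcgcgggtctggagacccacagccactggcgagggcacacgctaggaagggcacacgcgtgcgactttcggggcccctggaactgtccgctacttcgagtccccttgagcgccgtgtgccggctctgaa

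The promoters of both coactivators differ in makeup. That of Ppargc1a has a GC content of 50.3%, 1 cyclic AMP response element and 0 GC boxes. That of Ppargc1b has a GC content of 77% with 5 GC boxes and 0 cyclic AMP response elements, and that of Ppara has a GC content of 73.7% with 2 GC boxes. Of all 33469 promoters of the same length, 1.83% hold TGACGTCA and 33.1% hold GGGCGG. The core motif of the receptors, AGGTCA, lies in 16.2% of all promoters and in 0 of the 9 member promoters, so its paired forms AGGTCANAGGTCA, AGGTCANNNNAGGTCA and AGGTCANTGACCT, which contain it, were not found there either. CACGTG (6.42% of all promoters) was found in 0 of the 9, and TATAAA (14.2%) in 1, the first of Pparg.

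Levels are given as log2 signal with the array's 75th percentile set to 0, and they compare groups for 1 gene, not genes with each other. Differences are the first group named minus the second, with standard errors (SE), from limma fitted to all 8 arrays, and adjusted p is by Benjamini-Hochberg over all 18164 genes. At an adjusted p under 0.05, 0 of the 10 members differed in any of the 6 pairwise comparisons. The same count was 0 between all colitis and healthy arrays, between both n-3 groups and n-6, and in the F test over the 4 groups. The rule called 0.0275% of all genes in ALA against n-6 colitis and 0.0385% both in fish oil against n-6 colitis and in n-6 colitis against healthy colon. It called 0% of genes in ALA against healthy colon, in fish oil against healthy colon, in ALA against fish oil colitis and in all colitis against healthy colon, 0.033% in n-3 against n-6 colitis and 0.0275% in the F test. Each group's 2 arrays limit the precision.

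At an unadjusted p under 0.05 in the same limma fit, Ppara, Ppargc1a and Ppargc1b were higher in ALA than in n-6 colitis, 3 of 10 members where 3.2% of all genes were. Ppargc1a and Ppargc1b were higher in fish oil than in n-6 colitis, 2 of 10 where 6.01% of all genes were. Ppara, Ppargc1a and Ppargc1b were lower in n-6 colitis than in healthy colon, 3 of 10 where 7.75% of all genes were. With the 3 colitis groups averaged, Ppara and Ppargc1a were lower than in healthy colon, 2 of 10 where 4.06% of all genes were. The F test had an unadjusted p under 0.05 for Ppara, Ppargc1a and Ppargc1b, 3 of 10 where 9.57% of all genes had. Ppara passed the filter on dim probes through the ALA and healthy arrays alone, so its part in these counts was fixed by the filter and nothing is read from it. That leaves Ppargc1a alone of the other 9 members between all colitis and healthy arrays, and Ppargc1a and Ppargc1b in each of the other counts. Without n-6 replicate 1, which leaves 1 n-6 array, the ALA minus n-6 difference was 0.58 for Ppargc1a and 0.84 for Ppargc1b. Without that array the fish oil minus n-6 difference was 1.07 for Ppargc1a and 1.58 for Ppargc1b, and the n-6 minus healthy difference was -1.71 and -1.61. The brighter Ppard probe then differed by -1.16 for ALA minus n-6 and by 1.42 for n-6 minus healthy. With all arrays the dimmer Ppard probe had the opposite sign in both, at 0.25 and -1.05. The plot of signal on each array shows Ppara, Ppargc1a and Ppargc1b beside the other 7.

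**Figure D1:**
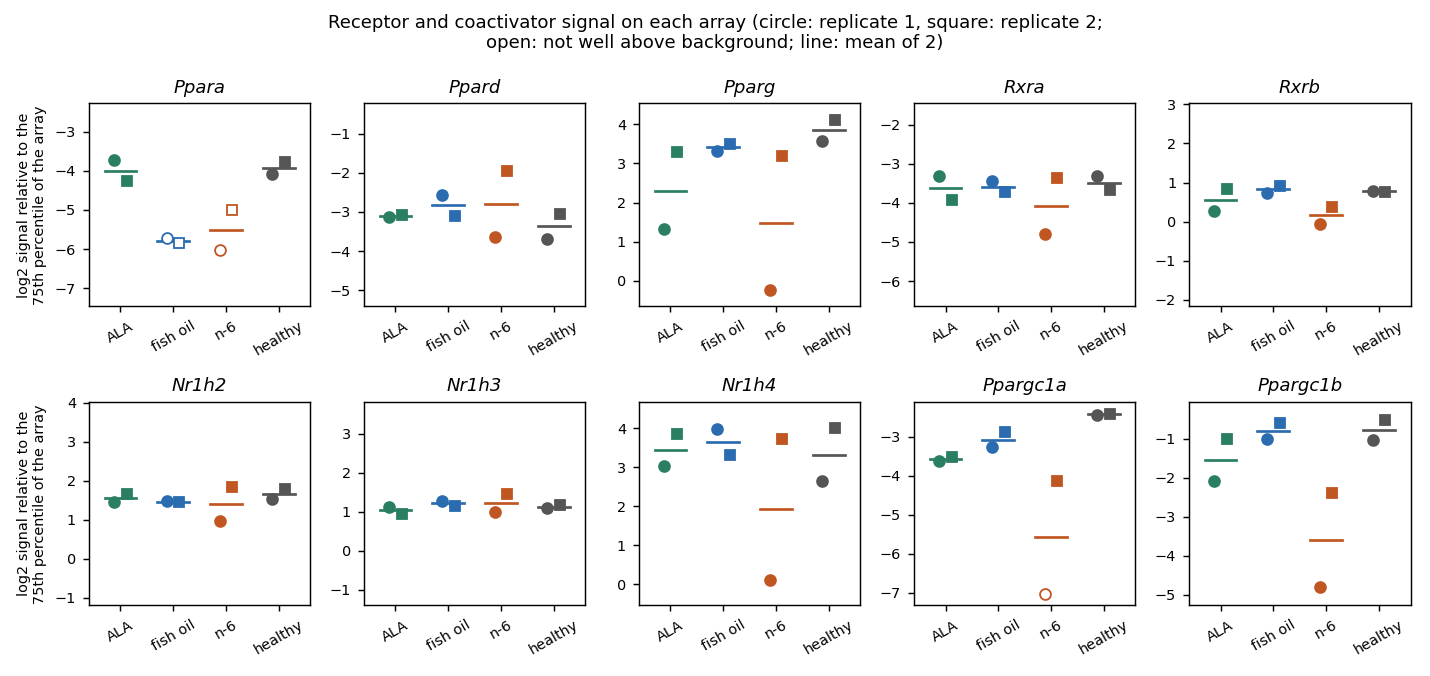
Log2 signal of each of the 10 genes, with the array's 75th percentile at 0, by group (ALA, fish oil and n-6 colitis, healthy), with circles for replicate 1, squares for replicate 2, open symbols where the probe was not well above background and a line at the mean of 2 arrays. Each panel spans the same number of log2 units. The n-6 pair is spread over 2.87 units for Ppargc1a and 0.47 for Nr1h3.

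Ppargc1a encodes PGC-1 alpha, the inducible coactivator of mitochondrial and oxidative genes. Its level was -3.61 and -3.51 on the ALA arrays, -3.27 and -2.88 on the fish oil arrays, -7.01 and -4.14 on the n-6 arrays, and -2.44 and -2.42 on the healthy arrays. Both n-6 arrays lay below all others, both healthy arrays lay above all others, and the ALA and fish oil arrays lay between without overlapping each other.

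The n-6 minus healthy difference of Ppargc1a was -3.15 (SE 0.819, 95% interval -5.08 to -1.21; limma adjusted p = 0.198). The difference was 2.02 for ALA minus n-6 (SE 0.819; limma adjusted p = 0.851) and 2.50 for fish oil minus n-6 (SE 0.819; limma adjusted p = 0.41). It was -1.13 for ALA minus healthy and -0.64 for fish oil minus healthy (SE 0.819 each; limma adjusted p = 0.807 and 0.994). The SE is shared by the 4 groups, whose own SDs were 0.070 for ALA, 0.28 for fish oil, 2.03 for n-6 and 0.014 for healthy colon (n = 2 each).

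The size of the Ppargc1a gap depended on n-6 replicate 1, the array not well above background for this gene and the one with the low epithelium marker level. Without it the n-6 minus healthy difference was -1.71, and without n-6 replicate 2 it was -4.59 with a limma adjusted p of 0.036, the one setting under which a member passed. With normexp background correction, which pulls dim signals together, it was -0.74. The difference for ALA minus n-6 was 0.58 without n-6 replicate 1 and 0.39 with normexp, and that for fish oil minus n-6 was 1.07 and 0.89. The sign of the n-6 minus healthy difference was the same in all 18 alternatives.

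Ppargc1b encodes PGC-1 beta, the related coactivator, also known for its ties to lipid synthesis in liver. Its level was -2.08 and -1.02 on the ALA arrays, -1.0 and -0.60 on the fish oil arrays, -4.80 and -2.38 on the n-6 arrays, and -1.02 and -0.53 on the healthy arrays. Both n-6 arrays were again the lowest of the 8, while the fish oil and healthy arrays overlapped.

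The Ppargc1b difference was 2.79 for fish oil minus n-6 (SE 0.771, 95% interval 0.97 to 4.61; limma adjusted p = 0.41) and 2.05 for ALA minus n-6 (SE 0.771; limma adjusted p = 0.84). It was -2.82 for n-6 minus healthy (SE 0.771; limma adjusted p = 0.206). For fish oil minus healthy it was -0.027 with an interval of -1.85 to 1.80, so these arrays do not fix its size. Without n-6 replicate 1 the n-6 minus healthy difference was -1.61, with normexp -1.48, and the sign was the same in all 19 alternatives. Without that array the difference was 1.58 for fish oil minus n-6 and 0.84 for ALA minus n-6, and with normexp it was 1.55 and 0.99. For the mean of both n-3 groups minus n-6, Ppargc1b differed by 2.42 and Ppargc1a by 2.26 (SE 0.668 and 0.709; limma adjusted p = 0.515 and 0.542). They were the 2 of 10 members higher there at an unadjusted p under 0.05, where 4.69% of all genes were, and 2 of 10 members did not overlap there, both higher, where 8.26% of all genes were higher without overlap. Without n-6 replicate 1 these were 1.21 and 0.83.

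**Figure D2:**
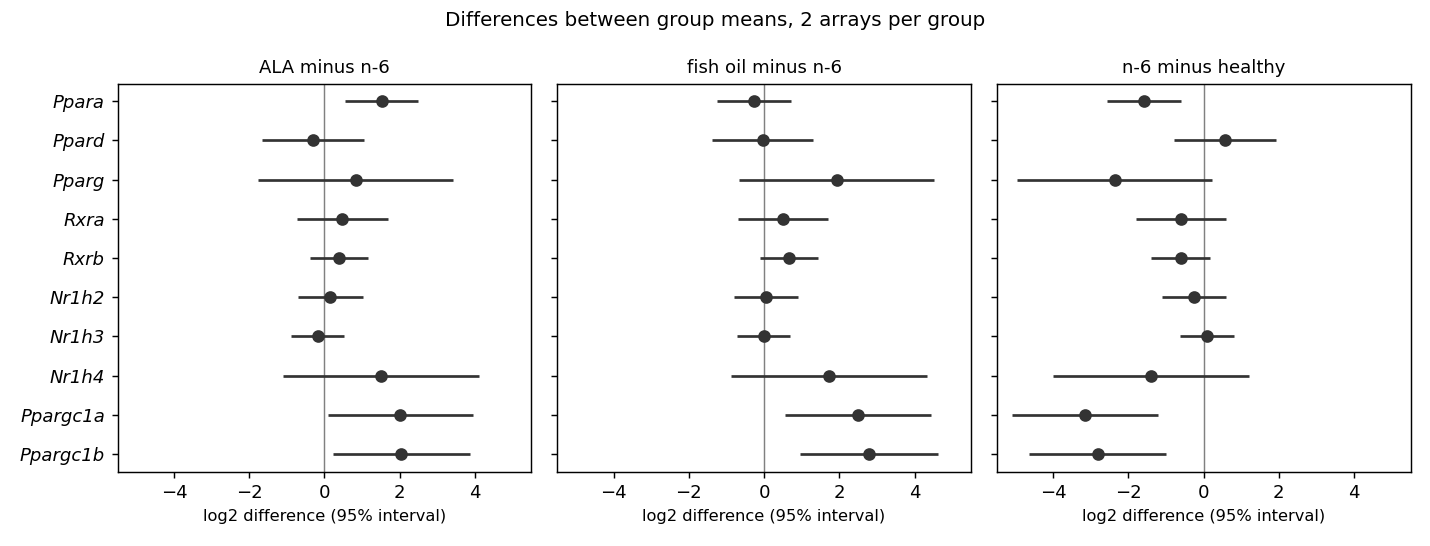
Log2 difference between group means for the 10 genes in 3 comparisons (ALA minus n-6, fish oil minus n-6, n-6 minus healthy), as points with 95% intervals from limma over 2 arrays per group. The intervals of Ppargc1a and Ppargc1b lie off 0 in all 3 panels (-5.08 to -1.21 for Ppargc1a in n-6 minus healthy) before adjustment for the number of genes.

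Ppara encodes PPAR-alpha, the receptor that drives fatty acid oxidation in fasting. Its level was -3.73 and -4.26 on the ALA arrays, -5.71 and -5.85 on the fish oil arrays, -6.01 and -5.01 on the n-6 arrays, and -4.07 and -3.77 on the healthy arrays. The probe was well above background on all ALA and healthy arrays and on none of the fish oil and n-6 arrays. That split is also the split by slide row.

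In processed intensity, Ppara read 20.7 and 18.1 on the ALA arrays, 2.2 and 5.61 on the fish oil arrays, 6.24 and 7.42 on the n-6 arrays, and 18.1 and 32.3 on the healthy arrays, all near the dim end. The dim groups were set at no less than the lowest signal well above background. Ppara was then 2.86-fold higher in ALA than in n-6 colitis (limma adjusted p = 0.838) and 2.43-fold higher in ALA than in fish oil colitis (limma adjusted p = 0.478). It was 3.01-fold lower in n-6 colitis than in healthy colon (limma adjusted p = 0.197) and 2.56-fold lower in fish oil colitis than in healthy colon (limma adjusted p = 0.994). On the n-6 arrays the probe's own signal was above that limit, so 2.86 and 3.01 are the measured folds and not lower bounds. The measured differences were 1.52, 1.79, -1.59 and -1.86 on the log2 scale (SE 0.414 each), and the adjusted p-values belong to them. With normexp they were 0.27, -0.18, -0.13 and 0.31, so that 2 of the 4 turned sign. ALA and healthy arrays overlapped for Ppara, with a difference of -0.074 (95% interval -1.05 to 0.90). In fish oil against healthy colon Ppara was the 1 member of 10 lower at an unadjusted p under 0.05, where 2.13% of all genes were, and in ALA against fish oil colitis it was the 1 member higher, where 6.6% were. Nothing is read from these 2 counts, since the filter kept Ppara only through the ALA and healthy arrays. In ALA against healthy colon 0 members passed at that threshold, where 6.55% of all genes differed in either direction.

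Pparg encodes PPAR-gamma, the target of the thiazolidinedione drugs and, in colitis, of interest as a brake on inflammatory genes. Its level was 1.32 and 3.3 on the ALA arrays, 3.33 and 3.5 on the fish oil arrays, -0.23 and 3.19 on the n-6 arrays, and 3.58 and 4.11 on the healthy arrays. The healthy arrays were the highest of the 8 and did not overlap with the colitis arrays, and 1 array in each of the ALA and n-6 pairs was far below its partner.

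The Pparg difference was -2.37 for n-6 minus healthy (SE 1.1; limma adjusted p = 0.391) and -1.44 for all colitis minus healthy (SE 0.897; limma adjusted p = 0.755). It was -0.65 for n-6 minus healthy without n-6 replicate 1. For ALA minus n-6 it was 0.83 with all arrays and -0.88 without n-6 replicate 1. Groups without overlap between all colitis and healthy arrays were found for 2 of 10 members, Pparg and Ppargc1a, both lower in colitis, where 5.27% of all genes were lower without overlap.

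Ppard encodes PPAR-delta, the broadly present member of the trio. The brighter of its 2 probes read -3.12 and -3.09 on the ALA arrays, -2.56 and -3.11 on the fish oil arrays, -3.64 and -1.94 on the n-6 arrays, and -3.69 and -3.04 on the healthy arrays. All groups overlapped, and the order of their means was within the spread of the n-6 pair (SD 1.2). The n-6 minus healthy difference was 0.58 (95% interval -0.77 to 1.93) with this probe and -1.05 (SE 0.654) with its dimmer probe, which was well above background on 6 of 8 arrays, so the probes disagreed in sign.

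Nr1h4 encodes the farnesoid X receptor, the bile acid sensor of ileum and colon. Its brighter probe read 3.02 and 3.85 on the ALA arrays, 3.98 and 3.32 on the fish oil arrays, 0.12 and 3.73 on the n-6 arrays, and 2.64 and 4.0 on the healthy arrays. A single array, n-6 replicate 1, was low and the other 7 lay within 2.64 to 4.0. The second probe showed the same array as the lowest, at -2.90 against -1.02 to 0.98 on the other 7. The n-6 minus healthy difference was -1.40 (SE 1.1; limma adjusted p = 0.618) and 0.41 without n-6 replicate 1.

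The low values of Pparg, Nr1h4, Ppargc1a and Ppargc1b on n-6 replicate 1 came with low epithelial and adipocyte marker levels on that array. Summed on the linear scale, the 13 epithelium markers read 640 and 524 times the 75th percentile on the ALA arrays, 1137 and 755 on the fish oil arrays, 315 and 854 on the n-6 arrays, and 656 and 622 on the healthy arrays. Of 10 absorptive colonocyte markers 9 were tested, and they summed to 346 and 370 on the ALA arrays, 655 and 404 on the fish oil arrays, 154 and 513 on the n-6 arrays, and 435 and 532 on the healthy arrays. The 5 red cell genes summed to 14.2 and 14.7 on the ALA arrays, 10.1 and 10.1 on the fish oil arrays, 267 and 177 on the n-6 arrays, and 7.91 and 6.97 on the healthy arrays. Of 8 adipocyte markers 6 were tested, with a mean log2 level of -1.83 and 1.08 on the n-6 arrays. It was -1.55 and 0.34 on the ALA arrays, -0.67 and 0.31 on the fish oil arrays, and -0.38 and 1.29 on the healthy arrays. On the ALA arrays, where Pparg read 1.32 and 3.3, the epithelium markers had mean log2 levels of 4.60 and 4.63. On n-6 replicate 2 the mean log2 level of the epithelium markers was 5.09, against 4.88 and 5.02 on the healthy arrays. That of the absorptive colonocyte markers was 1.46, with 7 of the 9 well above background. On the other groups' arrays it was 2.33 and 2.07 for healthy, 1.69 and 1.47 for ALA, and 1.81 and 2.48 for fish oil. Ppargc1a and Ppargc1b lay below all 6 arrays of the other groups on n-6 replicate 2, and Pparg and Nr1h4 did not. The part of these cells in the members' values was not tested.

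**Figure D3:**
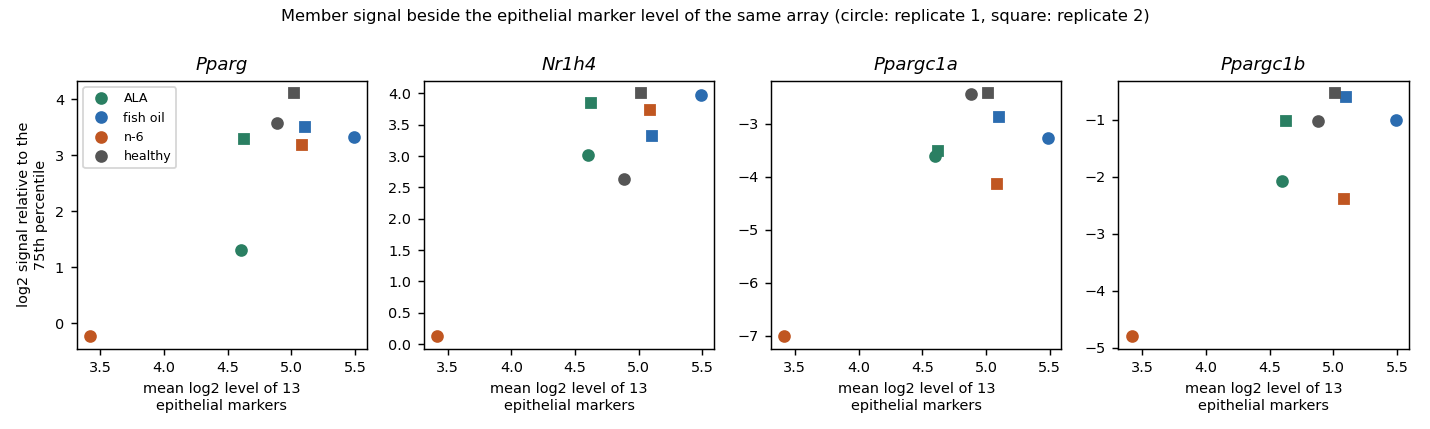
Log2 signal of Pparg, Nr1h4, Ppargc1a and Ppargc1b relative to the 75th percentile against the mean log2 level of 13 epithelial markers on the same array, 1 point per array, coloured by group with circles for replicate 1 and squares for replicate 2. The n-6 replicate 1 array sits at 3.42 on the horizontal axis, left of the other 7 at 4.60 to 5.49, and lowest in every panel.

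Rxrb, a retinoid X receptor that pairs with the others, read 0.27 and 0.82 on the ALA arrays, 0.74 and 0.91 on the fish oil arrays, -0.056 and 0.37 on the n-6 arrays, and 0.79 and 0.75 on the healthy arrays. The n-6 arrays lay below the fish oil and healthy arrays and overlapped with the ALA arrays. The difference was -0.61 for n-6 minus healthy and 0.67 for fish oil minus n-6 (SE 0.329 each; limma adjusted p = 0.453 and 0.444), with the same sign in all 19 alternatives.

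Rxra, its relative and the main partner in liver, read -3.30 and -3.92 on the ALA arrays, -3.43 and -3.73 on the fish oil arrays, -4.80 and -3.37 on the n-6 arrays, and -3.31 and -3.66 on the healthy arrays. Apart from n-6 replicate 1 the arrays lay within -3.92 to -3.30, and all groups overlapped. The n-6 minus healthy difference was -0.60 (95% interval -1.81 to 0.60) and turned to 0.11 without n-6 replicate 1.

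The liver X receptors were the steadiest members. Nr1h3, encoding the form rich in liver, gut and macrophages, read 1.13 and 0.95 on the ALA arrays, 1.27 and 1.16 on the fish oil arrays, 0.99 and 1.46 on the n-6 arrays, and 1.09 and 1.17 on the healthy arrays. Its range over the 8 arrays was 0.51, the narrowest of the 10. Nr1h2, encoding the broadly present form, read 1.47 and 1.66 on the ALA arrays, 1.47 and 1.45 on the fish oil arrays, 0.98 and 1.84 on the n-6 arrays, and 1.52 and 1.80 on the healthy arrays. Both n-6 arrays bracketed all others for Nr1h2.

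For Nr1h3 the differences were -0.18 for ALA minus n-6 (95% interval -0.89 to 0.53), -0.0090 for fish oil minus n-6 (-0.72 to 0.70) and 0.091 for n-6 minus healthy (-0.62 to 0.80). For Nr1h2 they were 0.15 for ALA minus n-6 (95% interval -0.70 to 1.01), 0.056 for fish oil minus n-6 (-0.80 to 0.91) and -0.25 for n-6 minus healthy (-1.11 to 0.61). These intervals give the sizes that 2 arrays per group leave unresolved.

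Across the 6 pairwise comparisons, groups without overlap were about as common among the members as among all genes or rarer. They numbered 3 of 10 in ALA against n-6 colitis (30% of all genes), 4 in fish oil against n-6 colitis (46.6%), 5 in n-6 colitis against healthy colon (45.5%), 2 in ALA against healthy colon (40.5%), 4 in fish oil against healthy colon (38.7%) and 5 in ALA against fish oil colitis (45.7%). In direction, all 5 in n-6 colitis against healthy colon were lower in n-6 colitis, where 21.7% of all genes were lower without overlap. These were Pparg, Rxrb, Ppargc1a, Ppargc1b and Ppara. Ppara was also among the members without overlap in ALA against n-6, fish oil against healthy and ALA against fish oil. The filter kept it only through the ALA and healthy arrays, so nothing is read from its part in these counts. These comparisons share arrays, so their counts are not independent.

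**Figure D4:**
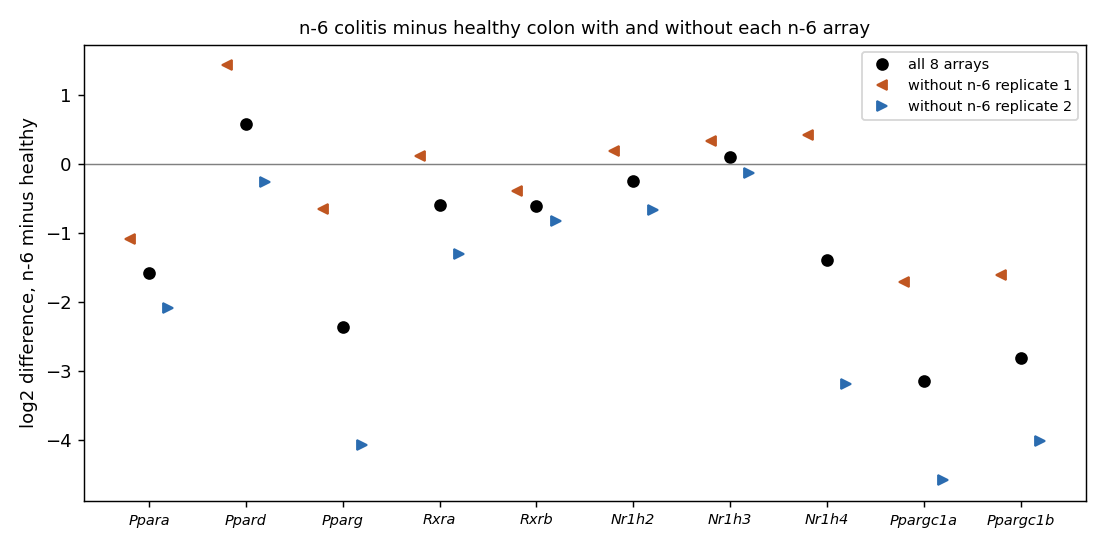
Log2 difference between n-6 colitis and healthy colon for the 10 genes, with all 8 arrays (black circles), without n-6 replicate 1 (left triangles) and without n-6 replicate 2 (right triangles). The Ppargc1a difference runs from -4.59 to -1.71 and the Nr1h4 difference from -3.20 to 0.41.

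Beside the receptors, 31 of 34 listed PPAR target genes were tested, and 0 passed at an adjusted p under 0.05 in any comparison. Their median difference was -0.73 for n-6 minus healthy, -0.68 for ALA minus healthy and -0.37 for fish oil minus healthy, against 0.025, 0.038 and 0.0031 over all genes. In n-6 colitis against healthy colon 22 of 31 differences were negative (48.5% of all genes), and 9 were lower and 2 higher at an unadjusted p under 0.05 (7.75% and 6.55% of all genes). In fish oil against n-6 colitis 5 were higher and 1 lower at that threshold (6.01% and 5.97% of all genes). The size of these differences depended largely on n-6 replicate 1, the array with the low epithelium marker level. The mean log2 level of the 31 genes was 0.096 and 0.59 on the ALA arrays, 0.47 and 0.62 on the fish oil arrays, -0.40 and 0.75 on the n-6 arrays, and 0.69 and 1.33 on the healthy arrays. Without n-6 replicate 1, which leaves 1 n-6 array, the median for n-6 minus healthy was -0.20, with 18 of 31 negative (49.9% of all genes). For fish oil minus n-6 the median was 0.34 with all arrays and -0.027 without n-6 replicate 1, with 16 of 31 then negative (49.6% of all genes).

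Cpt1a and Acadm, PPAR-alpha targets that carry fatty acids into mitochondria and begin their oxidation, differed by -1.67 and -1.71 for n-6 minus healthy (SE 0.465 and 0.392; limma adjusted p = 0.211 and 0.169). Without n-6 replicate 1 these were -1.09 and -1.32. For ALA minus healthy they differed by -1.50 and -1.46, and for fish oil minus healthy by -0.53 and -0.37 (SE 0.465 and 0.392 in both).

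Angptl4, a PPAR target that inhibits lipoprotein lipase, had another order of groups. It read 0.67 and 0.80 on the ALA arrays, -0.84 and -0.64 on the fish oil arrays, 2.87 and 2.54 on the n-6 arrays, and 0.31 and 1.75 on the healthy arrays. The n-6 arrays lay above all others and the fish oil arrays below all others. The difference was -3.44 for fish oil minus n-6 (SE 0.481; limma adjusted p = 0.245) and -1.97 for ALA minus n-6 (SE 0.481; limma adjusted p = 0.838). The unadjusted p of 0.000182 for fish oil minus n-6 was smaller than that of any member in any comparison.

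Of 14 listed LXR target genes 13 were tested, and 0 passed. Their median was 0.93 for ALA minus fish oil, against 0.014 over all genes, with 11 of 13 positive and 6 higher at an unadjusted p under 0.05 (6.6% of all genes). Abcg1, a cholesterol exporter, read 1.61 and 1.92 on the ALA arrays against 0.78 and 0.89 on the fish oil arrays, a difference of 0.93 (SE 0.318; limma adjusted p = 0.478). Abca1, the exporter that starts HDL assembly, differed by 0.94 and the sterol transporter Abcg5 by 2.0 (SE 0.373 and 0.692; limma adjusted p = 0.499 and 0.478). Abcg5 was well above background on 5 of 8 arrays and read -5.46 and -5.96 on the fish oil arrays, near the dim end. Of the 13 LXR targets, 13 were well above background on each ALA array, and 10 and 11 on the fish oil arrays. Those dim on fish oil arrays were kept by the filter through other groups, so nothing is read from their part in the count. Srebf1, the lipid synthesis regulator also under LXR, differed by 0.079 (SE 0.342). Macrophage markers, cells rich in such exporters, had a median of 0.10 over 8 genes for ALA minus fish oil, and neutrophil markers 0.98 over 5. The median was 1.27 over 5 skeletal muscle markers, 3 of them higher at an unadjusted p under 0.05, and 0.59 over 5 red cell genes. It was -0.69 over 13 colon epithelium markers, 10 of them lower without overlap (20.4% of all genes), -0.75 over 9 absorptive colonocyte markers, -0.45 over 9 smooth muscle markers and -0.52 over 6 adipocyte markers. Their part in this result was not tested.

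**Figure D5:**
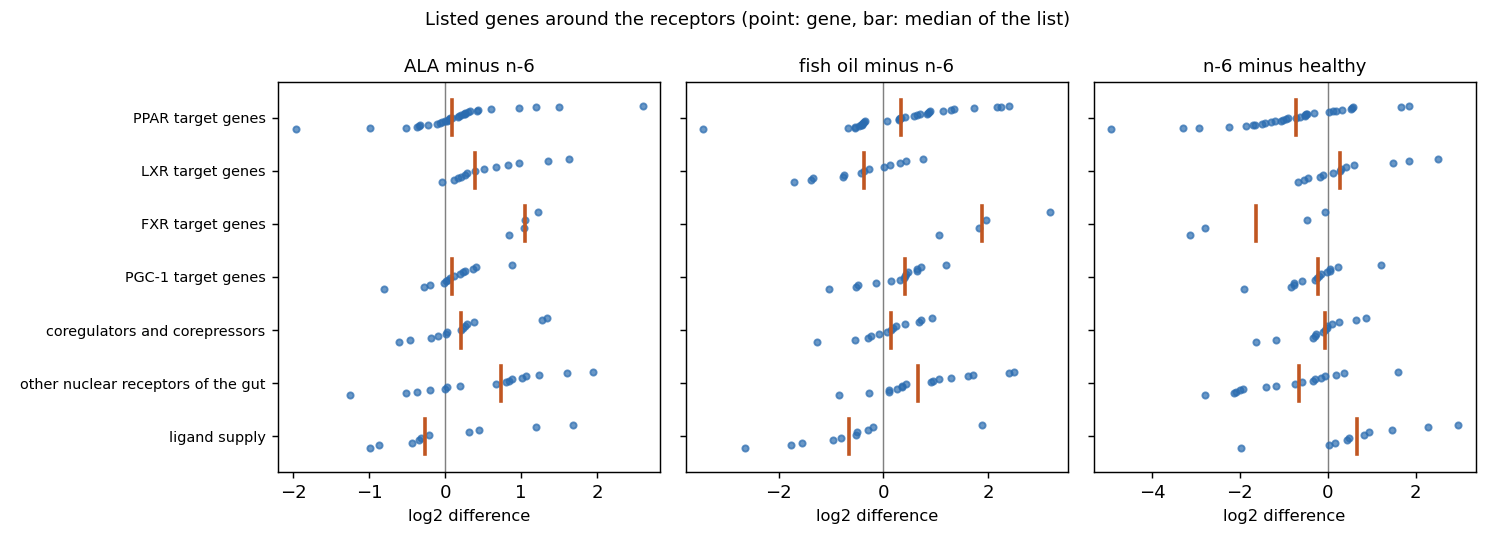
Log2 differences of the tested genes of 7 lists around the receptors in 3 comparisons, 1 point per gene, with a bar at the median of the list. The PPAR target median lies at -0.73 in n-6 minus healthy.

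The 4 tested FXR target genes of 9 listed had a median of -1.63 for n-6 minus healthy, and 0.93 without n-6 replicate 1, with 0 at an unadjusted p under 0.05. Slc51a and Slc51b, the subunits of the basolateral bile acid exporter, differed by -3.13 and -2.80 (SE 2.68 and 1.6; limma adjusted p = 0.647 and 0.483). Both were low on n-6 replicate 1, at -4.43 and -1.27, as Nr1h4 was, while n-6 replicate 2 read 3.15 and 4.23. Slc51a also read -2.16 on ALA replicate 1 and 0.71 on fish oil replicate 2, against 2.95 and 4.39 on their partner arrays. Nr1h4 was not low on ALA replicate 1 or fish oil replicate 2, at 3.02 and 3.32, and Slc51b read 1.93 and 2.91 there. The 14 tested PGC-1 target genes of 15 listed had a median of -0.21 for n-6 minus healthy, with 2 lower and 1 higher at an unadjusted p under 0.05, where 7.75% and 6.55% of all genes were. These 3, named after their values were seen, were Atp5f1b, the beta subunit of ATP synthase, at -1.90 (SE 0.353; limma adjusted p = 0.125), Uqcrc2, a core subunit of respiratory complex III, at -0.77 (SE 0.305; limma adjusted p = 0.32) and Sod2, the mitochondrial superoxide dismutase, at 1.21 (SE 0.444; limma adjusted p = 0.295). Without n-6 replicate 1 the median of the list was -0.091. Esrra and Cycs, an orphan receptor driven by PGC-1 alpha and the electron carrier cytochrome c, differed by -0.28 and -0.59 (SE 0.416 and 0.388).

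Among 13 tested coregulators the median for n-6 minus healthy was -0.063. At an unadjusted p under 0.05 in the limma fit, 2 were lower and 1 higher, where 7.75% and 6.55% of all genes were. The corepressor Ncor1 differed by -0.28 and the coactivator Ncoa1 by -0.097 for n-6 minus healthy (SE 0.369 and 0.311).

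Among 16 tested other nuclear receptors of the gut, 13 of 16 differences were negative for n-6 minus healthy, with 5 lower and 1 higher at an unadjusted p under 0.05, where 48.5% of all genes were negative, 7.75% lower and 6.55% higher. Their median was -0.66 with all arrays and -0.47 without n-6 replicate 1, with 10 of 16 then negative (49.9% of all genes). Vdr, the vitamin D receptor, differed by -1.99 (SE 0.534; limma adjusted p = 0.203), and Rxrg, the retinoid X receptor best known from muscle and brain, by 1.59 (SE 0.434; limma adjusted p = 0.206). Rxrg thus ran in the direction opposite to Rxrb, with n-6 levels of -1.18 and -1.62 against healthy levels of -3.25 and -2.73. In the ligand supply list, 9 of 10 differences were positive and 1 negative for n-6 minus healthy, where 48.5% of all genes were negative. At an unadjusted p under 0.05 in the limma fit, 4 were higher and 1 lower (6.55% and 7.75% of all genes). The median was 0.66, and 0.26 without n-6 replicate 1, with 3 of 10 then negative (49.9% of all genes). Ch25h, which makes an oxysterol, differed by 1.48, and Cyp27a1, which makes another, by -1.98 (SE 0.419 and 0.663; limma adjusted p = 0.214 and 0.263).

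The named genes whose profiles over the 8 arrays were most like those of the members were sought among 10272 candidates, as a description of these arrays. Nr1h4 was most like Lgals9 (Pearson r = 0.996) and Lgals5 (0.994), Pparg most like Fam3b (0.991), Ppargc1a most like Cnnm4 (0.993) and Ppargc1b most like Lrrc75a (0.992). For Ppara the nearest was Klhdc9 (0.967), for Ppard Manba (0.99), for Rxra Man2a1 (0.972), for Rxrb Aplf (0.984), for Nr1h2 Irf7 (0.964) and for Nr1h3 Leprot (0.971). The 8 arrays share 1 slide, and n-6 replicate 1 is far from the rest for several of these genes.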

How the data were processed

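Spot intensity values were made with Agilent Feature Extraction 11.5.1.1, per the file headers, as processed signals of 1 dye with background subtracted; scaling between arrays was not part of them. The deposited value table holds log2 values, whose 75th percentile lay between 0.0032 and 0.00898 and whose median between -3.18 and -2.89 on each array (ALA -2.89 and -3.15, fish oil -2.93 and -3.10, n-6 -3.14 and -3.15, healthy -2.93 and -3.18); how probes were joined in it is not stated in the labels or headers. Its correlation with the scanner values was 0.982 to 0.99, which bore out its scale and direction, and it served as an alternative.

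Control and outlier spots were left out, spots of a probe were averaged as log2, and the array's 75th percentile was subtracted. Probes were kept if both arrays of at least 1 group were well above background (20793 of 30367 probes), and a gene took its brightest probe. Probes were named through RefSeq genes of GRCr8, 13213 of the 18164 genes tested. limma 3.58.1 in R 4.3.3 fitted all 8 arrays (4 residual and 3.02 prior degrees of freedom), with Benjamini-Hochberg adjustment over all genes at 0.05. The fit was tested on simulated data. Where neither array of a group was well above background, a fold was taken against the higher of the probe's own signal and the array's lowest signal well above background, averaged over the arrays. The 10 genes and the lists, and the named genes (all 10, and list genes of textbook role), were chosen with earlier results of these data known. Values of 2 listed genes are not reported here. Motifs and figures were made with Python 3.11.15.

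The numbers 1 and 2 of the replicates were not taken as pairs in the main fit. Correlations of deviations from the group means between same-numbered arrays ran from -0.168 to 0.47, the highest for ALA with healthy. Background correction, scaling, filter, probe choice, prior, arrays in the fit, the replicate block and leaving out each array were tried, 19 alternatives in all.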

Additional observations from a re-analysis of the deposited data

How the results depend on the processing

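The count of members called was 0 under the 11 alternatives that kept all arrays, in 9 tests for 10 of them and in the 6 pairwise tests for the fit on only the groups compared. When 1 array was left out at a time, the count ranged from 0 to 1 for n-6 colitis against healthy colon, the 1 being Ppargc1a without n-6 replicate 2, and was 0 in the other 8 tests. With the replicate block the Ppargc1a difference for n-6 minus healthy was -3.15 (limma adjusted p = 0.168), that of Ppargc1b -2.82 (limma adjusted p = 0.139), and the count was 0 in every test. The block changed no call. Normexp moved the values of dim probes most, and Ppara turned sign in fish oil minus healthy (0.31) and ALA minus fish oil (-0.18); the cause was not tested. Median centring shifted the median of all genes by -0.20 for ALA minus n-6, -0.13 for fish oil minus n-6 and 0.14 for n-6 minus healthy, which turned the Nr1h2 difference to -0.043 for ALA minus n-6. Normexp shifted it by 0.22 for fish oil minus n-6, 0.24 for fish oil minus healthy and -0.19 for ALA minus fish oil. Over all genes, calls in n-6 colitis against healthy colon numbered 7, with 69 under normexp, 29 with a robust, intensity-dependent prior, 13 with median centring or the replicate block, 23 without n-6 replicate 2 and 0 without n-6 replicate 1. Spots of a member's probe on 1 array differed by up to 0.82 for Ppara and 0.61 for Ppargc1a, the dim probes, and by up to 0.13 for Nr1h3.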
